A study of Mus musculus with 10 samples.

Results

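The 10 genes described here are 7 genes of border-associated macrophages (Mrc1, Cd163, Pf4, Lyve1, F13a1, Cbr2 and Ms4a7) and the 3 genes of the mouse Ms4a6 family (Ms4a6b, Ms4a6c and Ms4a6d). They were chosen by name, as 10 of the 19782 genes in the deposited table, and all 10 were among the 12505 genes that passed the filter on low counts. RNA was profiled from CD45low CD11b+ microglia of the mouse hippocampus with Smart-Seq libraries made from small amounts of total RNA. There were 4 libraries from wild-type mice on normal diet, 3 from 5xFAD mice on normal diet (control), and 3 from 5xFAD mice after depletion and return of the microglia (repopulated). 5xFAD mice carry transgenes with familial Alzheimer's disease mutations in human amyloid precursor protein and presenilin, driven by the neuronal Thy1 promoter. The repopulated mice were 4 months old when they began chow with 290 mg/kg PLX3397, an inhibitor of the CSF1 receptor that microglia need to survive. They ate it for 1 month and then normal diet for 1 month, and the labels give no age for the other mice. The labels do not say that each library came from a separate mouse, so the p-values measure the spread between these libraries, which may in part be technical.

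Border-associated macrophages live in the meninges, around vessels and in the choroid plexus. They share many genes with microglia, which lie within the brain tissue, and are commonly told apart from them by high Mrc1, Lyve1, Cd163, Pf4, F13a1, Cbr2 and Ms4a7. MS4A genes encode small proteins that cross the membrane several times and act in signalling at the surface and in endosomes. In humans, variants in the MS4A gene cluster are associated with the risk of Alzheimer's disease, and microglia and macrophages are its main site of expression in the brain. The Ms4a6 genes are expressed by microglia themselves as well as by other macrophages and monocytes.

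The Ms4a6 genes resemble each other in sequence, which bears on how well reads can be assigned to them. The first 120 bases of the 3 coding sequences are shown for this reason, from GENCODE transcripts on GRCm38.p6, in lower case from the start codon, with a capital wherever a base differs from that of both other genes.
Ms4a6b: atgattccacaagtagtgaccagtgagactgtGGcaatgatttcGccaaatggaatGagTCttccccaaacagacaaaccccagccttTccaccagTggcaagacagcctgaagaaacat
Ms4a6c: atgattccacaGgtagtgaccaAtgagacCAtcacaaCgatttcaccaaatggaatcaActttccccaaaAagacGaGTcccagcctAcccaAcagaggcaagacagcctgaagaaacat
Ms4a6d: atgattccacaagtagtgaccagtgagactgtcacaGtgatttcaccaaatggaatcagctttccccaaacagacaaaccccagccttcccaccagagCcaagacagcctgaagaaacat
In this stretch 8 bases of Ms4a6b, 12 of Ms4a6c and 2 of Ms4a6d differed from both relatives. Over the whole coding sequence Ms4a6b shared 85.8% of aligned bases with Ms4a6c and 81.2% with Ms4a6d, and Ms4a6c shared 77.4% with Ms4a6d. Identity to Ms4a7, a more distant relative, was 57.1% to 60%. Cut into all windows of 100 bases, 0% of the Ms4a6b and Ms4a6d transcripts recurred in another annotated gene, and in windows of 50 bases 5.9% and 2.9% did. For Ms4a6c 51.3% of the 100-base windows recurred, all of them in BE692007, a gene that overlaps it on the opposite strand. The deposited estimated counts of Ms4a6c had a fractional part in 10 of 10 libraries at a tolerance of 0.001, and those of the other 9 genes in 0. The strand setting of the counting is not given in the sources used here, so reads of Ms4a6c and of BE692007 cannot be told apart, and Ms4a6c levels are uncertain.

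Ms4a6b and Ms4a6c also have similar sequence near annotated start sites, and 250 bases before a RefSeq start of each are shown. They are from GRCm38.p6, both on the plus strand, at chr19:11518309-11518558 for Ms4a6b and chr19:11469118-11469367 for Ms4a6c. The Ms4a6c window runs past the start of the RefSeq gene extent at 11469353. Its last bases, with most of its marked match, therefore lie within that extent. The GENCODE extent of Ms4a6b, 11516512 to 11531256, covers its whole window. Of these neighbouring genes only Ms4a6b passed edgeR's test, and whether their changes differed was not tested. Capitals mark GGAAGT or its reverse complement, a short core within the sites that PU.1, a transcription factor of macrophages and microglia, recognises.
Ms4a6b: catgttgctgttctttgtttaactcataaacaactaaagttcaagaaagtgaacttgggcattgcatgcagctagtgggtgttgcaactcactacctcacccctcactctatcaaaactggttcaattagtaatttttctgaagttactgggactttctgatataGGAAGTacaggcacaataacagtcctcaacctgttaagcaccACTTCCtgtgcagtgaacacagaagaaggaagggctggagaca
Ms4a6c: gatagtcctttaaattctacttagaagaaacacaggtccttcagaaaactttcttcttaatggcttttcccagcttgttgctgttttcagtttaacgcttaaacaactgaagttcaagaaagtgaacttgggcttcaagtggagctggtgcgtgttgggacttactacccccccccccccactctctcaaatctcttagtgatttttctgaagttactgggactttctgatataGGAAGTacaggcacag
The Ms4a6b window held 2 such matches and the Ms4a6c window 1, and the aligned 175 bases were 85.1% identical, with 48 identical bases in the longest run. Searched on both strands, GGAAGT occurred in 19.7% of 32851 RefSeq windows of this length, so a match is common and is given as a description of the letters only. The longer PU.1 site GAGGAAGT had 0 matches in both windows shown, and it occurred in 2.4% of the RefSeq windows.

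**Figure D1:**
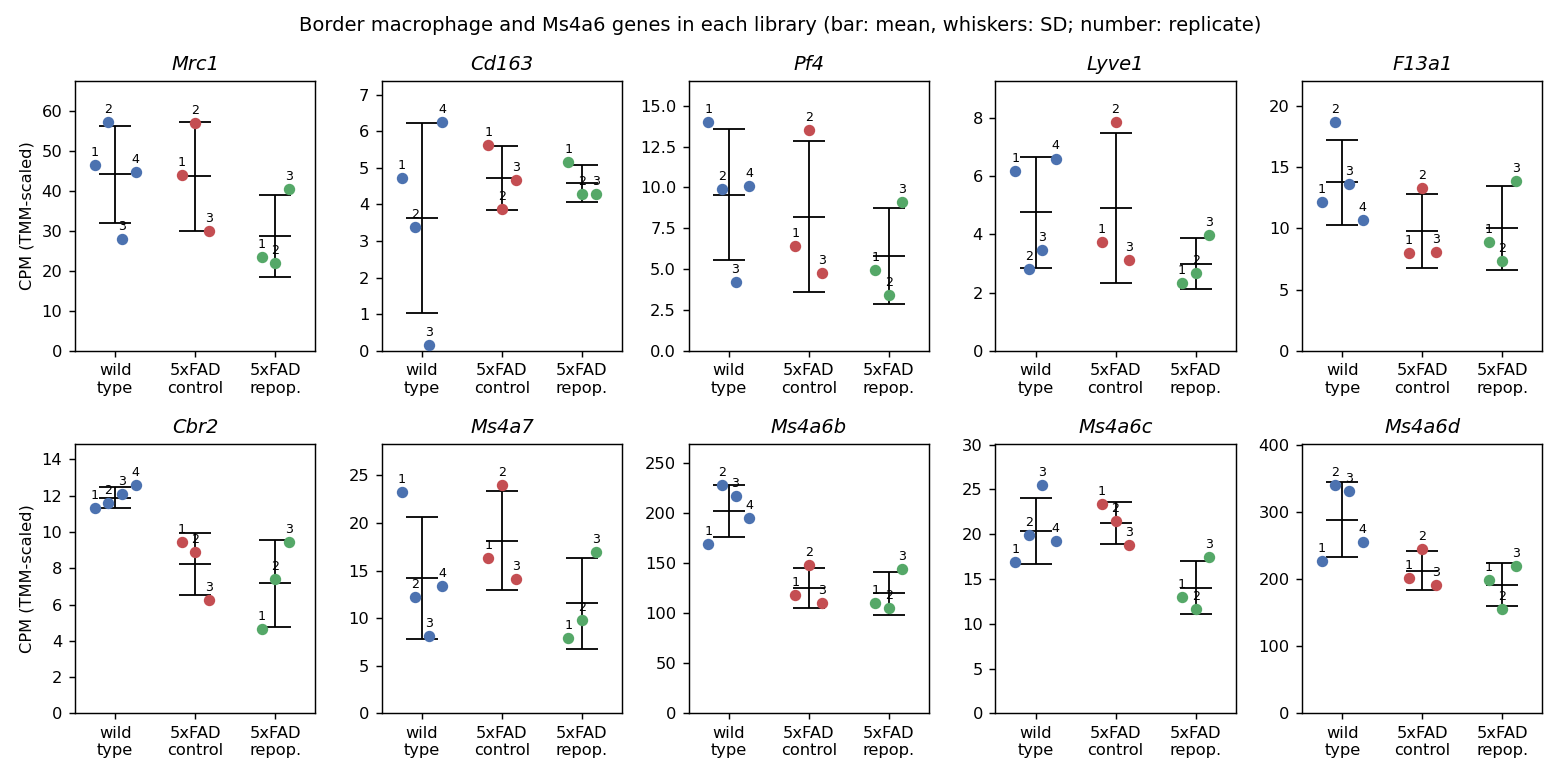
Level of each of the 10 genes in every library (vertical axes, CPM on TMM-scaled library sizes, each axis from 0; bars, group mean; whiskers, SD; numbers, replicate) for 4 wild-type, 3 control and 3 repopulated libraries. The wild-type points of Ms4a6b lie above all 5xFAD points, while most border macrophage genes overlap between groups, with repopulated 3 above the other repopulated libraries for 9 of the genes.

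Library totals ran from 18501136 to 23286814 estimated counts. Levels are given as CPM (counts relative to library sizes scaled by edgeR's TMM method) and, where genes are compared with each other, as the deposited TPM (a relative level that accounts for gene length). All 14 microglia identity genes were detected, with a summed level of 47500 to 65100 CPM, so the libraries carried the markers of the labelled cell type. Markers of fibroblasts, which lie beside border macrophages in the meninges, were close to 0, at 0 to 0.424 CPM summed over 7 genes, with Col1a1 and Lum at 0 in 9 of 10 libraries. Some libraries stood apart. Wild-type 3 held the most neuronal RNA (61.1 CPM summed over 8 genes, against 10.6 to 13.1 in the other wild-type libraries). Its sums for erythrocyte, astrocyte and oligodendrocyte genes, 281, 555 and 138 CPM, were also the highest. The next highest library had 20.7, 315 and 88.9 CPM, in that order. Much of every astrocyte sum came from Slc1a3, at 196 to 327 CPM over all libraries. In the oligodendrocyte sums Cnp was at 17 to 44.6 CPM. These 2 sums therefore say little of the genes at lower levels. Control 2 held the most neutrophil RNA (349 CPM over 11 genes, against 25.6 and 32.1 in controls 1 and 3). Outside the controls the neutrophil sum ranged widely, from 38.7 CPM (wild-type 2) up to 270 CPM (wild-type 3). Y-linked transcripts were near absent in 3 libraries, wild-type 2 and controls 1 and 3.

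On the TPM scale Ms4a6d was the highest of the 10 genes, with a mean level of 333 ± 103 TPM (SD, n = 10 libraries), followed by Ms4a6b at 171 ± 64 TPM. Ms4a6d exceeded Ms4a6b in 10 of 10 libraries. Pf4 (37.4 ± 20.3 TPM) and Ms4a6c (36.4 ± 8.48 TPM) did not differ beyond their spread, and each was the higher in 5 of the 10 libraries. Ms4a7 (21.1 ± 9.02 TPM) and Cbr2 (19.5 ± 7.03 TPM) were also within their spread, with Ms4a7 higher in 6 of 10. Mrc1 (12.3 ± 4.53 TPM), F13a1 (5.02 ± 1.81 TPM), Lyve1 (2.88 ± 1.43 TPM) and Cd163 (1.66 ± 0.698 TPM) came last. Each of the first 2 exceeded the next in 10 libraries, and Lyve1 exceeded Cd163 in 9. The mean level of Ms4a6d was higher than that of 98% of all genes in the table and that of Cd163 higher than that of 48.4%, so the border macrophage genes were present in these sorted cells at levels below those of Ms4a6b and Ms4a6d.

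Of the 10 genes Ms4a6b alone passed edgeR's test, and it was lower in both kinds of 5xFAD microglia than in wild-type microglia. In control against wild-type microglia 0 of the 10 rose and 1 fell, where 18.1% of all tested genes were called, 8.04% as lower and 10.1% as higher. The median log2 fold change was -0.12 over the 10 genes and -0.06 over all genes, and 2 of the 10 had an unadjusted p under 0.05, against 31.8% of all genes. In repopulated against control microglia 0 rose and 0 fell, where 0.568% of all genes were called (0.216% as lower and 0.352% as higher), and the medians were -0.35 and 0. An unadjusted p under 0.05 was reached there by 1 gene, Ms4a6c, against 18.5% of all genes, and DESeq2 and limma-voom also called 0 of the 10. In repopulated against wild-type microglia 0 rose and 1 fell, where 4.18% of all genes were called, 0.784% as lower and 3.4% as higher, and the medians were -0.61 and -0.02. An unadjusted p under 0.05 was reached by 5 of the 10 in this comparison, 2 of them border macrophage genes, against 15.1% of all genes. Over all genes this last comparison had 425 higher and 98 lower calls, and 411 and 201 with a correction for GC content and transcript length. The 3 comparisons use the same libraries in pairs, so their results are not independent of each other.

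**Figure D2:**
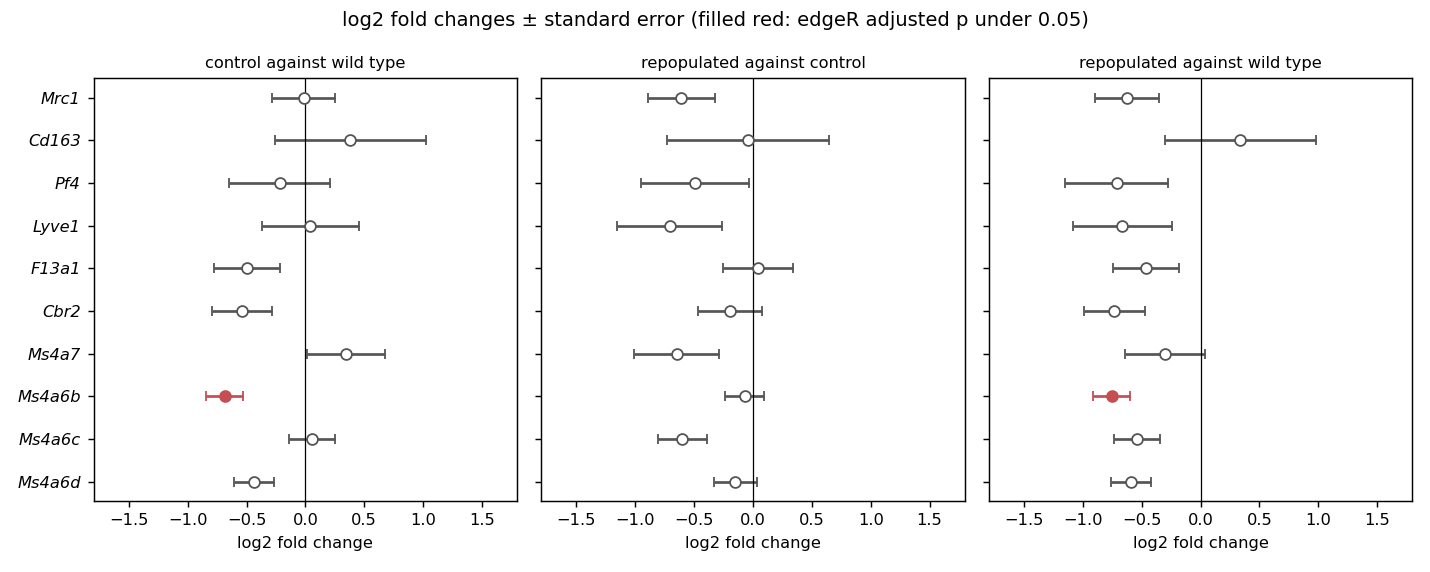
log2 fold change (horizontal axes, points; bars, standard error) of the 10 genes in each of the 3 comparisons; filled red points passed edgeR's test at an adjusted p under 0.05. Ms4a6b is the filled point in control against wild type (-0.69) and in repopulated against wild type (-0.76), and 9 of the 10 points lie below 0 in the last comparison.

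Ms4a6b (Entrez 69774, chromosome 19, 11518559 to 11530403) was at 169, 228, 217 and 195 CPM in wild-type libraries 1 to 4, at 118, 148 and 110 CPM in controls 1 to 3, and at 110, 105 and 144 CPM in repopulated libraries 1 to 3. Every wild-type library was above every 5xFAD library, and the control and repopulated libraries covered nearly the same range. It fell 1.61-fold in control against wild-type microglia, from 202 ± 26.3 (n = 4) to 125 ± 19.8 CPM (n = 3), with a log2 fold change of -0.69 (SE 0.157, edgeR adjusted p = 0.00771). The call held with any 1 of the 10 libraries left out, at log2 fold changes of -0.82 to -0.60. With only the libraries in which Y-linked transcripts were present, which leaves control 2 as the single control library, the log2 fold change was -0.38 and the edgeR adjusted p 0.352 (0.000145 to 0.352 across the alternatives). In repopulated microglia it was at 120 ± 21.2 CPM (n = 3) and fell 1.69-fold against wild type, with a log2 fold change of -0.76 (SE 0.158, edgeR adjusted p = 0.0116). The edgeR adjusted p of this second difference was 0.0843 without repopulated 1, 0.089 without repopulated 2 and 0.0588 in the libraries with Y-linked transcripts (0.000285 to 0.089 across the alternatives). Between repopulated and control microglia the log2 fold change was -0.07 (SE 0.166, edgeR adjusted p = 0.868). These are bulk libraries, in which fewer cells of a type and less RNA of a gene per cell cannot be told apart.

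Ms4a6d (Entrez 68774, chromosome 19, 11586606 to 11604804) was at 227, 340, 331 and 255 CPM in the wild-type libraries, at 201, 245 and 191 CPM in the controls, and at 199, 156 and 219 CPM in the repopulated libraries. Control 2 lay above wild-type 1, so control and wild-type microglia overlapped, while the repopulated libraries all lay below the wild-type libraries. The log2 fold change was -0.44 in control against wild-type microglia (SE 0.17, edgeR adjusted p = 0.0874) and -0.59 in repopulated against wild-type microglia (SE 0.17, edgeR adjusted p = 0.0726). These calls turned on the setting. Control against wild type passed without wild-type 1 (edgeR adjusted p = 0.0436) and after correction for GC and length (edgeR adjusted p = 0.000432, with a log2 fold change of -0.74, and 0.000432 to 0.774 across the alternatives). Repopulated against wild type passed without wild-type 1 (edgeR adjusted p = 0.0344), without the filter (0.0487), by DESeq2 (0.0209) and after correction for GC and length (0.00226, and 0.00226 to 0.354 across the alternatives). Against control microglia the repopulated libraries had a log2 fold change of -0.15 (SE 0.18, edgeR adjusted p = 0.704).

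Ms4a6c (Entrez 73656, chromosome 19, 11469353 to 11487182), the member with uncertain read assignment, was at 16.9, 19.9, 25.5 and 19.2 CPM in the wild-type libraries, at 23.4, 21.5 and 18.8 CPM in the controls and at 13, 11.7 and 17.4 CPM in the repopulated libraries. The control libraries lay within the wild-type range. The repopulated libraries lay below all controls, the only place where 1 of the 10 genes separated these 2 groups on the CPM scale, against 15.7% of all genes separated in that direction. On the deposited TPM they overlapped, where 7.16% of all genes were separated in that direction. The log2 fold change of repopulated against control was -0.60 (SE 0.211, edgeR adjusted p = 0.158), that of control against wild type 0.06 (SE 0.195, edgeR adjusted p = 0.865) and that of repopulated against wild type -0.54 (SE 0.198, edgeR adjusted p = 0.183). The last had an edgeR adjusted p of 0.0496 after correction for GC and length (0.0496 to 0.558 across the alternatives). Whether Ms4a6b and Ms4a6c differed in their change was not tested.

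Added up, the family was at 510 ± 84.5 CPM in wild-type (n = 4), 359 ± 49 CPM in control (n = 3) and 325 ± 54.2 CPM in repopulated libraries (n = 3). The CPM sum does not depend on how reads were split among the 3 genes. Sums and shares of TPM do depend on it, since TPM account for gene length. Neither kind of sum settles how reads were split between Ms4a6c and BE692007. The wild-type range of 412 to 588 CPM met the control range of 320 to 414 CPM at its edge and lay above the repopulated range of 272 to 381 CPM. On the deposited TPM the sums were 729 ± 74.1, 418 ± 66.7 and 413 ± 52.3, with no overlap between wild-type and 5xFAD libraries. TPM carry no TMM scaling, whose factors were 1.019 to 1.121 in wild-type and 0.9133 to 0.9169 in control libraries, and 29.4% of all genes separated control below wild-type libraries on TPM against 12.6% on CPM. Ms4a6d made up 59% to 65.9% of the summed TPM in every library, Ms4a6b 28.3% to 35.2% and Ms4a6c 5.2% to 10.2%. The share of Ms4a6c was 10.2%, 8.1% and 8.6% in the controls and 5.2% to 6.9% in all other libraries.

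**Figure D3:**
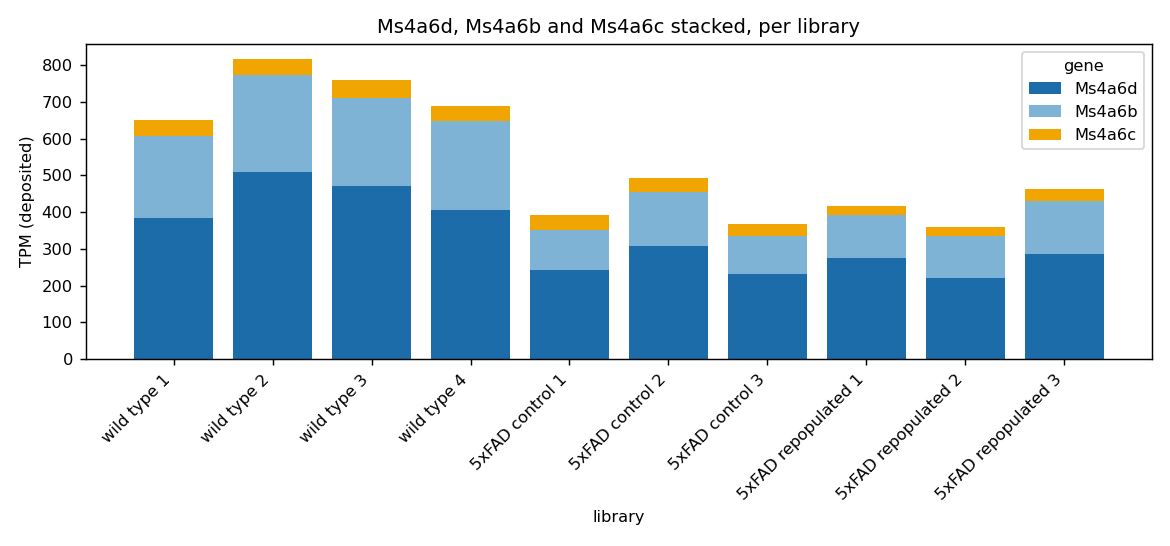
Deposited TPM of Ms4a6d, Ms4a6b and Ms4a6c stacked in each of the 10 libraries (vertical axis, TPM from 0; horizontal axis, library). The 4 wild-type stacks reach 650.9 to 817.3 TPM and the 5xFAD stacks 359.3 to 493.6 TPM, with Ms4a6d the largest segment in each.

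The receptor genes Mrc1, Cd163 and Lyve1 passed no test. Mrc1 (Entrez 17533, chromosome 2, 14229414 to 14332023), the mannose receptor CD206, was at 46.5, 57.1, 28 and 44.6 CPM in the wild-type libraries, at 44, 56.9 and 29.8 CPM in the controls and at 23.5, 21.9 and 40.4 CPM in the repopulated libraries. Repopulated 1 and 2 were the lowest of the 10 libraries, but repopulated 3 lay above control 3 and wild-type 3, so the groups overlapped. The log2 fold change was -0.02 in control against wild-type microglia (SE 0.267, edgeR adjusted p = 0.976), -0.61 in repopulated against control microglia (SE 0.287, edgeR adjusted p = 0.273) and -0.62 in repopulated against wild-type microglia (SE 0.271, edgeR adjusted p = 0.283). Cd163 (Entrez 93671, chromosome 6, 124304636 to 124330529), the haemoglobin-haptoglobin scavenger receptor, was at 4.73, 3.37, 0.146 and 6.25 CPM in the wild-type libraries, at 5.62, 3.88 and 4.67 CPM in the controls and at 5.17, 4.29 and 4.29 CPM in the repopulated libraries. Wild-type 3, with 3 counts, was far below the other 9 libraries, whose 71 to 139 counts lay close together. The log2 fold change of control against wild type was 0.38 (SE 0.642, edgeR adjusted p = 0.723) and -0.02 without wild-type 3, and that of repopulated against wild type was 0.34 (SE 0.641, edgeR adjusted p = 0.881) and -0.05 without wild-type 3. Between repopulated and control microglia it was -0.04 (SE 0.686, edgeR adjusted p = 0.982). Lyve1 (Entrez 114332, chromosome 7, 110850607 to 110862953), a hyaluronan receptor of perivascular and leptomeningeal macrophages and of lymphatic vessels, was at 6.17, 2.8, 3.45 and 6.61 CPM in the wild-type libraries, at 3.74, 7.86 and 3.11 CPM in the controls and at 2.34, 2.67 and 3.98 CPM in the repopulated libraries. Control 2 was the highest of all libraries and the groups overlapped. Its log2 fold changes were 0.04 (SE 0.411, edgeR adjusted p = 0.957) for control against wild type and -0.71 (SE 0.445, edgeR adjusted p = 0.414) for repopulated against control, and the second was -0.19 without control 2. Against wild type the repopulated libraries had -0.67 (SE 0.42, edgeR adjusted p = 0.52). The 5 lymphatic endothelial genes in the table summed to 4.38 to 11.2 CPM, most of it from Prox1 at 2.96 to 7.42 CPM. Pdpn was detected in every library, at 0.0475 to 2.96 CPM, while Flt4, Mmrn1 and Reln were at 0 in 8, 9 and 7 of the 10 libraries.

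The secreted factor and enzyme genes passed no test either, although Cbr2 separated the genotypes. Pf4 (Entrez 56744, chromosome 5, 90772435 to 90773383), which encodes the chemokine platelet factor 4, was at 14, 9.88, 4.23 and 10.1 CPM in the wild-type libraries, at 6.4, 13.5 and 4.76 CPM in the controls and at 4.95, 3.42 and 9.11 CPM in the repopulated libraries. Each group held a high and a low library, and all 3 overlapped. Its log2 fold changes were -0.22 (SE 0.43, edgeR adjusted p = 0.763), -0.49 (SE 0.462, edgeR adjusted p = 0.607) and -0.71 (SE 0.436, edgeR adjusted p = 0.505) for control against wild type, repopulated against control and repopulated against wild type, and the second was 0.06 without control 2. Platelets also make Pf4. Of the 8 platelet and megakaryocyte genes, which summed to 71.4 to 103 CPM, Itgb3 made up most at 58.3 to 92.8 CPM. Gp9 was at 3.35 to 10.8 CPM, Treml1 at 1.93 to 7.72 CPM and Gp1ba at 1.07 to 3.52 CPM. Ppbp, a platelet chemokine gene, was at 0 to 0.338 CPM. The part of platelets in the Pf4 level was not tested. F13a1 (Entrez 74145, chromosome 13, 36867178 to 37050244), the A subunit of coagulation factor XIII, was at 12.2, 18.7, 13.6 and 10.7 CPM in the wild-type libraries, at 7.98, 13.3 and 8.06 CPM in the controls and at 8.86, 7.36 and 13.9 CPM in the repopulated libraries. Control 2 and repopulated 3 lay within the wild-type range and the other 5xFAD libraries below it. Its log2 fold changes against wild type were -0.50 in control (SE 0.281, edgeR adjusted p = 0.24) and -0.46 in repopulated microglia (SE 0.28, edgeR adjusted p = 0.502), and between repopulated and control microglia 0.04 (SE 0.298, edgeR adjusted p = 0.964).

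Cbr2 (Entrez 12409, chromosome 11, 120729485 to 120732025), a carbonyl reductase gene, was at 11.3, 11.6, 12.1 and 12.6 CPM in the wild-type libraries, at 9.46, 8.92 and 6.27 CPM in the controls and at 4.63, 7.4 and 9.46 CPM in the repopulated libraries. The wild-type libraries lay in a narrow range above all 5xFAD libraries. The log2 fold change was -0.54 in control (SE 0.255, edgeR adjusted p = 0.164) and -0.73 in repopulated microglia (SE 0.257, edgeR adjusted p = 0.156) against wild type, so the difference did not pass, and between repopulated and control microglia it was -0.20 (SE 0.272, edgeR adjusted p = 0.749). With the GC and length correction the second had an edgeR adjusted p of 0.0425 (0.0425 to 0.531 across the alternatives). In all, 2 of the 10 genes, Cbr2 and Ms4a6b, were lower with no overlap in control against wild-type libraries on the CPM scale, where 12.6% of all genes were. In repopulated against wild-type libraries 3 of 10 were, with Ms4a6d as the third, where 6.82% of all genes were. On the deposited TPM it was 5 of 10 against 29.4% of all genes, with F13a1, Ms4a6d and Ms4a6c added, and 4 of 10 against 15.7%, with Ms4a6c added. On the deposited FPKM it was 3 of 10 and 4 of 10, in the same order, and the shares over all genes were not computed.

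Ms4a7 (Entrez 109225, chromosome 19, 11321039 to 11336146), the MS4A gene that marks border macrophages over resting microglia, was at 23.2, 12.2, 8.12 and 13.4 CPM in the wild-type libraries, at 16.3, 24 and 14.1 CPM in the controls and at 7.91, 9.77 and 17 CPM in the repopulated libraries. Wild-type 1 and control 2 were the highest, repopulated 1 and wild-type 3 the lowest, and all groups overlapped. The log2 fold changes were 0.35 (SE 0.332, edgeR adjusted p = 0.502) for control against wild type, -0.65 (SE 0.359, edgeR adjusted p = 0.348) for repopulated against control and -0.30 (SE 0.337, edgeR adjusted p = 0.768) for repopulated against wild type.

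Some of the border macrophage genes varied together from library to library within a group and others did not. Of the 7 genes, repopulated 3 was the highest repopulated library for 6, control 2 the highest control library for 5, control 3 the lowest for 5, and wild-type 3 the lowest wild-type library for 4. Averaged over the 7 genes, the deviation from the group mean on the log2 CPM scale was 0.46 in repopulated 3 against -0.23 in the other 2, 0.41 in control 2 against -0.04 and -0.37, and -0.84 in wild-type 3 against 0.13 to 0.42. The last value rests largely on Cd163, at -3.23 in wild-type 3. Over the other 6 genes the mean there was -0.45, and F13a1 and Cbr2 were at their second-highest wild-type level in that library. Over the 10 libraries Mrc1 correlated with Pf4 at r = 0.90 (rho 0.87), with Ms4a7 at r = 0.75 (rho 0.62) and with Cd209f, another lectin gene of border macrophages, at r = 0.83 (rho 0.79). With each group's mean removed these were 0.90, 0.76 and 0.87. Other pairs were not alike: on the same scale Cd163 had -0.15 with F13a1, -0.05 with Cbr2 and 0.30 with Lyve1, and F13a1 had 0.20 with Lyve1. Over all 21 pairs of the 7 genes the median was 0.51, from -0.15 to 0.90. These coefficients describe 10 libraries that share their scaling and depth. Markers of blood cells were also uneven. Monocyte genes summed to 47.7 CPM in control 2 against 26.2 and 23.5 CPM in controls 1 and 3, and neutrophil genes were highest in the same library, as given above. In repopulated 3 these lists were the lowest of the repopulated libraries, at 23.1 CPM against 28.8 and 30.1 for monocytes and 73.2 CPM against 178 and 183 for neutrophils. Choroid plexus genes summed to 28.6 CPM in wild-type 1, most of it from Ttr at 26.6 CPM, against 1.38 to 1.98 CPM in wild-type 2 to 4. Ms4a7 and Pf4 were highest of the wild-type libraries in wild-type 1, as were monocyte genes, at 53.5 CPM against 23.9 to 36.2. Among the controls choroid plexus genes were highest in control 1, at 12.5 CPM against 4.38 in control 2. Ms4a7 and Pf4 were highest of the controls in control 2. The part of all these cells in the border macrophage levels was not tested. Nor was that of the neuronal, erythrocyte, astrocyte and oligodendrocyte RNA that was highest in wild-type 3.

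**Figure D4:**
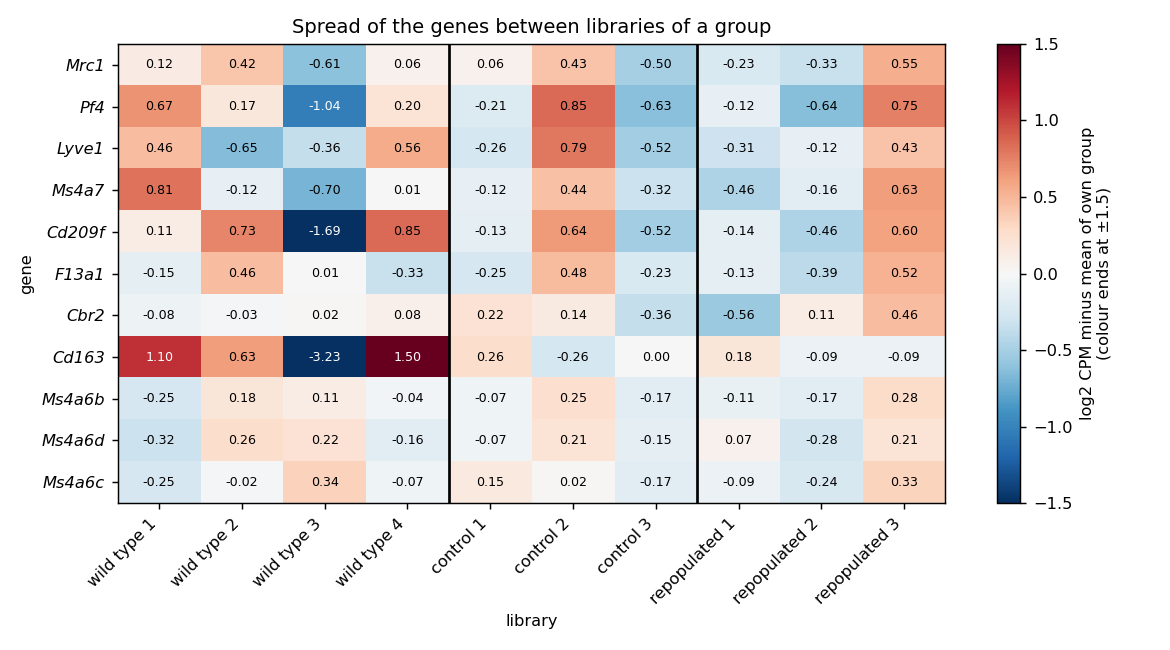
Deviation of each library from the mean of its own group (colour and printed value, log2 CPM) for the 10 genes and Cd209f (rows) in the 10 libraries (columns; lines divide the groups). Control 2 and repopulated 3 are mostly red and wild-type 3 mostly blue for the border macrophage rows, whereas the Ms4a6 rows at the bottom are pale, with all values between -0.32 and 0.34.

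Within the Ms4a6 family the 2 highest genes varied closely together, and they followed some border macrophage genes and not others. Ms4a6b correlated with Ms4a6d at r = 0.94 (rho 0.98, and 0.90 with group means removed) and with P2ry12, the microglial ADP receptor gene, at r = 0.93 (rho 0.94, and 0.80 with group means removed). With border macrophage genes it ranged widely. Its r was 0.84 with F13a1 (rho 0.78, and 0.89 with group means removed) and 0.83 with Cbr2 (rho 0.87, and 0.53), but 0.54 with Mrc1 (rho 0.68, and 0.58), 0.04 with Ms4a7 (rho 0.12, and 0.15) and -0.49 with Cd163 (rho -0.38, and -0.33). F13a1 also followed Ms4a6d (r = 0.86) and P2ry12 (r = 0.87). Over the 21 pairs of a border macrophage gene with an Ms4a6 gene, r with group means removed ran from -0.61 to 0.89 with a median of 0.17. With another homeostatic gene, Tmem119, Ms4a6d had r = 0.24 over all libraries and -0.89 with group means removed, so the likeness did not extend to every microglial gene. Of the 14 microglia identity genes 1 rose and 8 fell in control against wild-type microglia, where 10.1% and 8.04% of all genes did. In repopulated against wild-type microglia 1 rose and 2 fell, where 3.4% and 0.784% of all genes did. The part of this in the Ms4a6b difference was not tested. Among all tested genes those most like Ms4a6b over the 10 libraries were Alox5ap (r = 0.97), which encodes the 5-lipoxygenase activating protein, Zfp873 (0.96) and Clec4a3 (0.96), and those most like Ms4a6d were Cysltr1 (0.99), a cysteinyl leukotriene receptor gene, Itpripl1 (0.97) and Ankrd49 (0.95). The genes most like Mrc1 were Jmjd1c (0.93), Trmt10a (0.92) and Tm6sf1 (0.91). For Pf4 it was Nid2 (0.95), for F13a1 Mynn (0.95), for Lyve1 Gm3173 (0.93), for Cbr2 Cybrd1 (0.95), for Ms4a7 Gm5797 (0.98) and for Ms4a6c Zfp626 (0.95). The likest gene to Cd163, Zfp78, had r = 0.98 but rho 0.28, with wild-type 3 far from the other libraries in Cd163.

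Among the relatives of these genes, 1 was called, in 1 comparison. Of 16 listed MS4A relatives 12 were analysed here and 5 passed the filter. In control against wild-type microglia 1 of these 5 was called higher and 0 lower, where 10.1% and 8.04% of all genes were. Ms4a4a, Ms4a14, Tmem176a and Tmem176b were not called in any comparison. Ms4a4c was at 11, 10.3, 21.1 and 11 CPM in the wild-type libraries, at 21.1, 29.2 and 20.6 CPM in the controls and at 10.7, 12.4 and 15.6 CPM in the repopulated libraries. Wild-type 3 was as high as the controls and the other wild-type libraries about as low as the repopulated ones. Ms4a4c rose 1.77-fold in control against wild-type microglia, with a log2 fold change of 0.82 (SE 0.258, edgeR adjusted p = 0.0378). The edgeR adjusted p was 0.0845, 0.0872 and 0.102 without wild-type 1, 2 and 4, 0.0708, 0.174 and 0.0535 without control 1, 2 and 3, and 0.0526 without repopulated 2 (0.00101 to 0.174 across the alternatives). After correction for GC and length the log2 fold change was 0.54 (edgeR adjusted p = 0.11). The call was also lost with the compared groups fitted alone (edgeR adjusted p = 0.0648) and in the libraries with Y-linked transcripts. Repopulated against control gave -0.87 (SE 0.279, edgeR adjusted p = 0.133). Ms4a4c, which rose, and Ms4a6b, which fell, lie in the same cluster on chromosome 19, with Ms4a4b and Ms4a6c between them. Ms4a4b had 27, 2 and 5 counts in all over the wild-type, control and repopulated libraries, and Ms4a4d and Ms4a8a had no count.

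**Figure D5:**
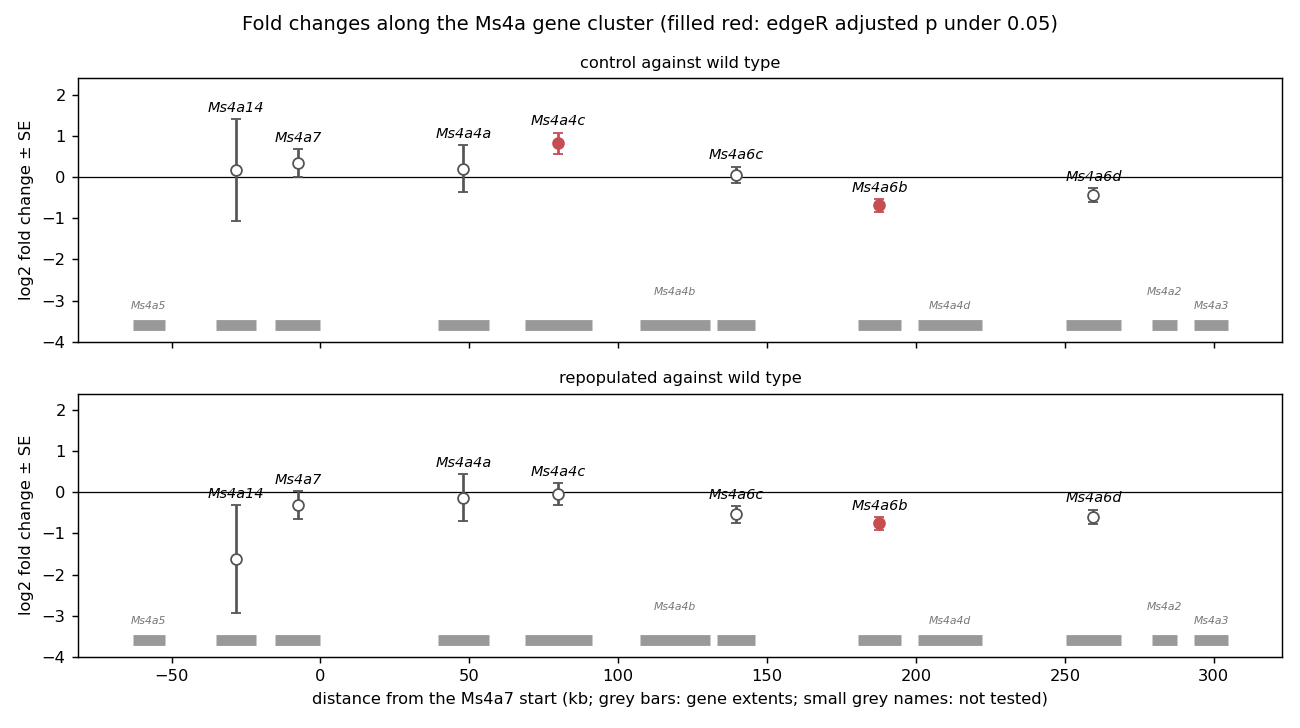
log2 fold change (vertical axes, points; bars, standard error; filled red, edgeR adjusted p under 0.05) of the tested genes of the MS4A cluster, placed by their distance from the start of Ms4a7 (horizontal axis, kb; grey bars, gene extents), in 2 comparisons with wild type. Ms4a4c is above 0 and Ms4a6b below 0 in control microglia, and in repopulated microglia Ms4a6b is the filled point.

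Other genes of border macrophages, on a list of 33 of which 32 were tested, were called in both directions. Vsig4 did not pass the filter. In control against wild-type microglia 5 of 32 rose and 3 fell, near the shares over all genes of 10.1% and 8.04%, with a median log2 fold change of 0.20. Wfdc17, a secreted protein gene, rose from 11.1 ± 6.52 to 90.3 ± 4.63 CPM (log2 fold change 3.02, edgeR adjusted p = 2.52e-05), Nrp1, a coreceptor gene, from 402 ± 39.3 to 837 ± 73.5 CPM (log2 fold change 1.06, edgeR adjusted p = 4.43e-05), and Folr2, the folate receptor beta gene, from 4.95 ± 0.993 to 11 ± 1.32 CPM (log2 fold change 1.15, edgeR adjusted p = 0.00336). Slc40a1, the iron exporter ferroportin, fell from 225 ± 40.2 to 109 ± 19.6 CPM (edgeR adjusted p = 0.000496), and Stab1, a scavenger receptor gene, from 232 ± 70.5 to 124 ± 4.45 CPM (edgeR adjusted p = 0.00641). With control 2 as the single control library the last 2 had an edgeR adjusted p of 0.0752 and 0.123 (1.19e-07 to 0.0752 and 0.000131 to 0.123 across the alternatives). Microglia express several of the listed genes too, with means over all libraries of 596 CPM for Nrp1, 302 CPM for Hpgd and 228 CPM for Maf. Cp, the ceruloplasmin gene, rose with a log2 fold change of 1.03 (edgeR adjusted p = 0.0383), and Ccl24, a chemokine gene, fell with -0.87 (edgeR adjusted p = 0.0439). The edgeR adjusted p of Cp was 0.0524 to 0.126 without wild-type 2 or any 1 control or repopulated library (0.0142 to 0.214 across the alternatives). That of Ccl24 was 0.0571 to 0.135 without wild-type 1, 2 or 4, any 1 control or repopulated 2 or 3 (0.0118 to 0.3 across the alternatives). Both calls were also lost with the compared groups fitted alone, with Y-linked status as a term and in the libraries with Y-linked transcripts, that of Cp also after correction for GC and length and that of Ccl24 also without the filter.

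In repopulated against control microglia 0 of these 32 genes rose and 1 fell, against 0.352% and 0.216% of all genes, with a median of -0.38. The 1 gene was Cd209a, which encodes a lectin found on dendritic cells and macrophages, at 31.1, 60.6 and 19.6 CPM in the controls and 4.41, 4.42 and 3.71 CPM in the repopulated libraries, with 14.2, 32.6, 6.75 and 21.4 CPM in wild-type libraries. The repopulated libraries were low and close together and lay below all others. The log2 fold change was -3.15 (SE 0.547, edgeR adjusted p = 0.0351). The edgeR adjusted p was 0.0521 without wild-type 4, 0.0836 and 0.0961 without controls 1 and 2, and 0.189, 0.267 and 0.0961 without repopulated 1, 2 and 3 (4.08e-05 to 0.267 across the alternatives), with every log2 fold change at -2.60 or below. In repopulated against wild-type microglia, where 3.4% of all genes were called higher and 0.784% lower, 3 rose (Wfdc17, Nrp1 and Folr2, with log2 fold changes of 2.11, 0.61 and 1.04) and 3 fell (Cd209a, Ccl8 and Slc40a1, with -2.16, -1.87 and -0.63), with a median of -0.40. The edgeR adjusted p of these 6 was 0.00104, 0.0112, 0.0179, 0.0374, 0.0374 and 0.0385, in the order given. Wfdc17 kept its call with any 1 library left out. The edgeR adjusted p of Nrp1 was 0.0585 without repopulated 3 (4.45e-05 to 0.0691 across the alternatives), and that of Folr2 0.0753 and 0.104 without repopulated 1 and 3 (0.00159 to 0.104). Among the genes that fell it was 0.054 to 0.172 for Cd209a without wild-type 1 or 4, control 1 or any 1 repopulated library (0.00299 to 0.215 across the alternatives). It was 0.06 to 0.188 for Ccl8, a chemokine gene, without wild-type 1 or 3 or any 1 repopulated library (0.00251 to 0.188). For Slc40a1 it was 0.055 to 0.214 without wild-type 2 or 3, control 3 or any 1 repopulated library (0.00679 to 0.214). Of the calls in both comparisons, those of Cd209a were also lost by limma-voom, without the filter and with Y-linked status as a term, and that of Ccl8 by limma-voom and with the compared groups fitted alone. Those of Folr2 and Slc40a1 were lost in the libraries with Y-linked transcripts, and that of Folr2 after correction for GC and length. Genes of dendritic cells, which also express Cd209a, summed to 176 to 216 CPM in control and 174 to 200 CPM in repopulated libraries. Most of each sum came from Bst2 (mean 163 and 130 CPM) and Fscn1 (27.2 and 46.1), so it says little of the genes at lower levels. The next highest were Zbtb46 (5.68 and 6.22), Clec9a (2.21 and 1.85), Xcr1 (1.7 and 1.01) and Klrd1 (1.22 and 2.28). The part of dendritic cells in the Cd209a difference was not tested.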

How the data were processed

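Per the file headers, the authors deposited 3 values per gene and library: estimated counts (expected counts, not normalised), FPKM and TPM. HISAT, Bowtie2 and GRCm38.p6 appear in the submitters' processing notes. The quantifier, like versions and strand setting, is not given in the sources used here. Counts were rounded, then analysed in edgeR 4.0.16 under R 4.3.3 (TMM, filterByExpr, robust quasi-likelihood fit of 3 groups over 10 libraries, Benjamini-Hochberg over 12505 genes, threshold 0.05). The prior count was 0.125 for fold changes and 2 for correlations of log2 CPM. The biological coefficient of variation was 27.3%. Every pair of libraries within a group differed by more than sampling noise. The fit was tested on simulated data. Alternatives were DESeq2 1.42.0, limma-voom (limma 3.58.1), other scalings and filters, groups fitted alone, a replicate block, Y-linked status, each library left out and, chosen after seeing the data, GC and length correction. Ranges of adjusted p given across the alternatives include those from DESeq2 and limma-voom beside those from edgeR. The members and lists were chosen with earlier results of these data known. Named were all members, tested MS4A relatives, called border macrophage genes and the likest genes. An item that is counted in a list but not named is not reported here. Coordinates and promoters are RefSeq GRCm38.p6. Promoters matched for 8 members, not for Lyve1 and Ms4a6d.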

Additional observations from a re-analysis of the deposited data

Results flagged for a closer look

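Among 21 genes checked for a library far from the other wild-type libraries, 1 passed the critical value, about the number that chance gives. Ms4a4c had 21.1 CPM in wild-type 3, and its other wild-type values ran from 10.3 to 11 CPM. The gap to the nearest library, divided by the range, exceeded the critical value of 0.829, which chance does in about 1 in 20 groups.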

How the results depend on the processing

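Control against wild type had 2265 calls, 1315 to 2910 with 1 library left out and 1202 in the libraries with Y-linked transcripts. Of the 10 genes 1 was called, 1 to 2 with 1 library left out, 0 in the libraries with Y-linked transcripts and 2 after GC and length correction. Repopulated against control had 71 calls, 698 by DESeq2, 125 by limma-voom, 166 without the filter, 125 with a filter of 5 CPM in 3 libraries, 630 with these groups fitted alone, 1 with Y-linked status as a term, 388 in the libraries with Y-linked transcripts and 0 to 328 with 1 library left out (0 without repopulated 2, 328 without wild-type 3). In that comparison 0 of the 10 genes were called under any of the 21 alternatives. Repopulated against wild type had 523 calls, 289 in the libraries with Y-linked transcripts and 284 to 688 with 1 library left out. There 1 of the 10 genes was called, 2 by DESeq2 and without the filter, 0 in the libraries with Y-linked transcripts, 4 after GC and length correction and 0 to 2 with 1 library left out. The replicate block gave 1464 calls in control against wild type and 25 in repopulated against control, and it changed no call of the 10 genes. Among other genes named it ended the call of Ms4a4c (edgeR adjusted p = 0.0769) and Ccl24 (0.101) in control against wild type and of Folr2 (0.0671), Nrp1 (0.0691) and Slc40a1 (0.0671) in repopulated against wild type. Same-numbered libraries did not deviate together (r -0.105 to 0.071 over 9 pairs), so the numbers were not taken as pairs. On deposited TPM 5 of the 10 genes were lower with no overlap in control against wild type, against 3 on FPKM and 2 on CPM. In repopulated against control it was 0 on TPM and FPKM, against 1 on CPM. The directions that turned all belong to differences that were not called. In control against wild type Mrc1 had 0.01 with DESeq2 size factors and the DESeq2 test, Lyve1 0 by limma-voom and -0.1 after GC and length correction, and Ms4a6c -0.18 after that correction. In the libraries with Y-linked transcripts Mrc1 had 0.53, Pf4 0.52 and F13a1 0.13. In repopulated against control Cd163 had 0.04 with Y-linked status as a term and 0.25 in the libraries with Y-linked transcripts, F13a1 had -0.4 in the latter, and Ms4a6b and Ms4a6d had 0.14 and 0.06 after GC and length correction. With 1 library left out the log2 fold change of control against wild type ran from -0.25 to 0.2 for Mrc1, -0.02 to 0.78 for Cd163, -0.77 to 0.06 for Pf4, -0.47 to 0.29 for Lyve1 and -0.02 to 0.18 for Ms4a6c. That of repopulated against control ran from -0.17 to 0.1 for Cd163, -0.97 to 0.06 for Pf4, -0.27 to 0.32 for F13a1, -0.45 to 0.04 for Cbr2 and -0.22 to 0.07 for Ms4a6b. That of repopulated against wild type ran from -0.05 to 0.74 for Cd163 and -0.69 to 0.05 for Ms4a7. The cause was not tested. Where leaving out controls leaves 1 library, it is assumed to vary like the others. Fold changes followed GC content across tested genes (rho -0.263, 0.435 and 0.135 in the 3 comparisons), and a GC value was found for 97% of them. Lyve1, Cd163 and most values of Pf4 and Cbr2 were under 10 CPM, and the smallest difference that could have been called was not computed.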
